A study of Mus musculus with 2 samples.

Results

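The 10 genes described here are Elane, Prtn3, Mpo, Ctsg, S100a8, S100a9, Cebpb, Cebpd, Cebpe and Cebpg, out of 21938 protein-coding mouse genes. They were chosen by name, 6 as proteins stored in granulocytes and 4 as members of the C/EBP family of transcription factors, and not by a threshold on a measured value. For each gene, peaks of open chromatin were collected within 1 kb of any annotated transcript start (promoter peaks) and within 50 kb of the gene body. The footprints inside those peaks, short stretches protected from cleavage, and the stretches with a listed false discovery rate of cleavage were collected with them.

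The data are 2 DNase-seq libraries of liver from mouse embryos at day 13.5, biological replicates 1 and 2 of 1 group. DNase-seq reads the ends of DNA fragments released where the enzyme DNase I cuts accessible chromatin. The strain is given as C57BL/6N,129, and every library shares the LCR deletion and the HET globin mutation, neither of which the labels describe further. There was no control group, so no effect of the genotype could be measured, and the values below describe 2 libraries without a test.

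Neutrophil elastase (Elane), proteinase 3 (Prtn3), myeloperoxidase (Mpo) and cathepsin G (Ctsg) are made in early granulocyte precursors and packed into azurophil granules. S100a8 and S100a9 form calprotectin, a calcium-binding complex that fills the cytoplasm of neutrophils. C/EBP proteins are basic leucine zipper factors that bind as dimers, and they drive successive steps of granulocyte maturation as well as liver gene expression and stress responses. The fetal liver holds blood precursors of several lineages beside hepatoblasts, with red cell precursors the most abundant. In such bulk tissue, fewer open cells of a type and less open chromatin per cell cannot be told apart.

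The peak lists held 47198 peaks for replicate 1 and 36523 for replicate 2, with median values of 1.23 and 1.25. Each value is a cleavage signal that the authors normalised for depth, and within a library the values are whole multiples of 1 step, with a largest departure of 0.00406 of a step in replicate 1 and 0.00508 in replicate 2. If 1 step is 1 read, an assumption behind all intervals below, a median peak held 100 and 90 reads. Markers fixed for the tissue's cell types were read at promoters. Of 8 erythroid genes, 7 had a promoter peak in both libraries, led by Epor with 15.3 and 6.39. Of 6 hepatocyte genes, 2 did, led by Foxa3 with 9.41 and 4.33, while Alb had none in either library. The 6 macrophage, 5 mast cell and basophil and 3 eosinophil genes had 0 with peaks in both, and Vcam1 alone had a peak in 1 library, with 0.444 in replicate 2. Adgre1, Cma1 and Ear6 are examples without a promoter peak in either library. All hepatocyte, macrophage, mast cell, basophil and eosinophil starts listed are poor in CG pairs, by the measure given below. The share with a peak in both libraries was 26% for starts of that class and 54.1% over all genes. Of 7 erythroid starts in that class, 6 had one. Peaks of both libraries over 1 kb from any start were read too. At least 1 lay within 50 kb of all 8 erythroid genes and of 2 of the 6 hepatocyte genes. The same held for 5 macrophage, 2 mast cell and basophil and 1 eosinophil gene, beside 54.7% of all genes.

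Sites of 2 kinds carry most of what follows. A first set shows CEBP gene sites, with the bases that lie inside a footprint of both libraries in capitals and the gene's own strand read 5′ to 3′. They are GRCm38.p6 reference sequence from RefSeq's genome.
Cebpg promoter, chr7:35056574-35056798, minus strand: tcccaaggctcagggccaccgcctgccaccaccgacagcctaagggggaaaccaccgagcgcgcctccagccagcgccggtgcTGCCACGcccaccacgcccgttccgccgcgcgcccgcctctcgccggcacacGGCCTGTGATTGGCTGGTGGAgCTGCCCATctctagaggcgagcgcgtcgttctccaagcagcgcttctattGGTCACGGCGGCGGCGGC
Cebpd promoter, chr16:15887061-15887285, plus strand: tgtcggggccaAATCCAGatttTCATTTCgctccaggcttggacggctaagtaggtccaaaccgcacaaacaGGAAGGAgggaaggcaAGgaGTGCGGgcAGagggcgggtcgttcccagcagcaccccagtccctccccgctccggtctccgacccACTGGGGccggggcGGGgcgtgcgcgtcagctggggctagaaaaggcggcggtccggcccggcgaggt
Cebpb upstream site, chr2:167685221-167685420, plus strand: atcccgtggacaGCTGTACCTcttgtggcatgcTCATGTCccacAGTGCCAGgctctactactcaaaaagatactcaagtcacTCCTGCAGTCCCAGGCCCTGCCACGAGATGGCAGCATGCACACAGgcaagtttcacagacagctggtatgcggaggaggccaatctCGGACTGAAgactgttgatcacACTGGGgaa
Cebpe downstream site, chr14:54705901-54706160, minus strand: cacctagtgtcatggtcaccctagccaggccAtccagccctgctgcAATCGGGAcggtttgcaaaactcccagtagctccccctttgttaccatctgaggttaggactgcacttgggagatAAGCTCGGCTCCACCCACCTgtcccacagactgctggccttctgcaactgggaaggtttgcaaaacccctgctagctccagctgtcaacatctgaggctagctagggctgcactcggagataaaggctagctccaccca

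A second set shows the granule genes, on the plus strand of the same build. In the site upstream of Elane, capitals again mark footprints of both libraries. In the Elane and Mpo promoters, which had no peak, capitals mark GAGGAA, the core letters of PU.1 sites.
Elane upstream site, chr10:79883781-79883960: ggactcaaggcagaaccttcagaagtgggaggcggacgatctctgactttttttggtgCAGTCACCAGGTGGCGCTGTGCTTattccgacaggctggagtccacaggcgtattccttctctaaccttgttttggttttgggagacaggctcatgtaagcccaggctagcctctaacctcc
Elane promoter, chr10:79886022-79886246: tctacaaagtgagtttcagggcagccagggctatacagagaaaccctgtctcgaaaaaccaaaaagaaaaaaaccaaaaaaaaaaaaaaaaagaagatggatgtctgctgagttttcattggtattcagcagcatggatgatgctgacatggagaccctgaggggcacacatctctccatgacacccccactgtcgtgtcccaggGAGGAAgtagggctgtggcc
Mpo promoter, chr11:87793356-87793580: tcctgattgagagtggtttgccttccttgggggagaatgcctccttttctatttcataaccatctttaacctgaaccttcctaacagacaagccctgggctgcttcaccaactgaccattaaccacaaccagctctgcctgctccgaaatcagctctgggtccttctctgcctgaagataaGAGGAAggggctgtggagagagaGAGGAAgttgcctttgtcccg

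A promoter peak was present for 6 of the 10 genes in replicate 1 and for 3 in replicate 2, beside 58.5% and 55.4% of all protein-coding genes. The 3 genes with one in both libraries were Cebpb, Cebpd and Cebpg, and the share over all genes was 54.1%. Of the 6 granule and calprotectin genes, 0 had a promoter peak in both libraries, while 3 of the 4 C/EBP genes did. Within 2500 bases of a start instead of 1 kb, the counts were 2 of 6, Elane and Prtn3 through the same site, and 4 of 4. The share of all genes within 2500 bases was not computed, and a wider distance cannot lower it. Prtn3, S100a8 and Cebpe had one in replicate 1 only, and Elane, Mpo, Ctsg and S100a9 in neither library.

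**Figure D1:**
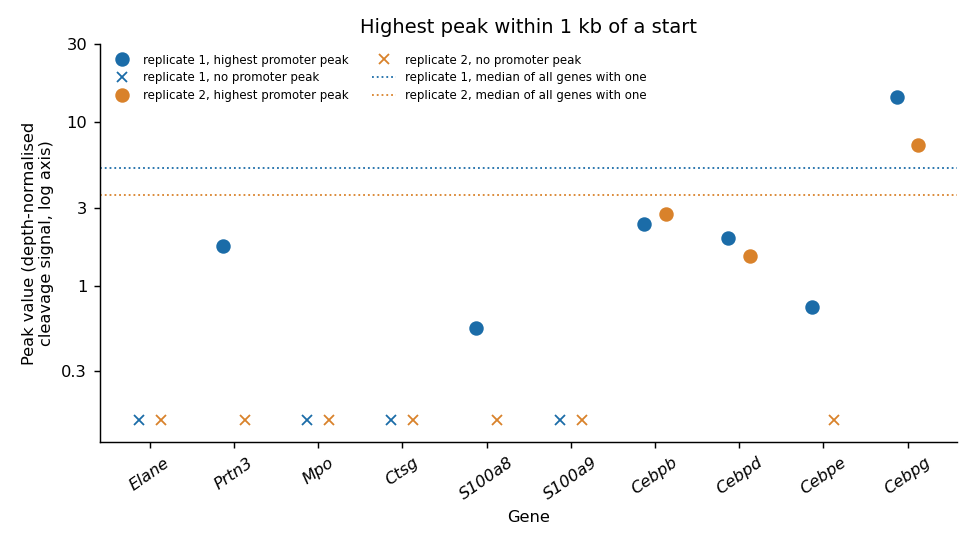
Highest peak value within 1 kb of any start of each gene (log axis), replicate 1 in blue and replicate 2 in orange. Crosses at the foot of the axis mark genes with no promoter peak and have no value, and dotted lines are the medians over all genes with a promoter peak, 5.21 and 3.60. Only Cebpg lies above those medians, and the granule genes have either a low peak in replicate 1 or none.

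The base composition of the promoters divided the genes along almost the same line. Starts were called CpG-rich where the observed number of CG pairs within 500 bases on either side was at least 0.6 of that expected from the bases. The ratio was 1.01 at Cebpb, 0.950 at Cebpg and 0.858 at Cebpd, the 3 genes with a promoter peak in both libraries. It was 0.369 at Cebpe and between 0.136 at S100a9 and 0.264 at Ctsg for the granule and calprotectin genes. Over all genes, 86.3% of CpG-rich starts and 26% of CpG-poor starts had a promoter peak in both libraries. The 3 CpG-rich and 7 CpG-poor genes here gave 3 and 0, so a share of 0 among 7 CpG-poor starts stands beside that 26%. The printed Elane and Mpo promoters hold 2 CG pairs each, against 27 in the Cebpg promoter and 20 in that of Cebpd, over sequences of equal length. The part of CpG content in the difference between the gene groups was not tested.

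Cebpg, a widely expressed C/EBP protein that lacks an activation domain of its own and pairs with other family members, had the highest promoter of the 10. It lies on chromosome 7 from 35046422 to 35056573 on the minus strand. Its peak at 35056481 to 35056800, over the outermost start, had 14.2 (95% Poisson interval 13.4 to 15.1) in replicate 1 and 7.21 (6.60 to 7.86) in replicate 2. Among genes with a promoter peak these values lay at percentile 87.8 and 90.1. A second peak over a later start, 35055921 to 35056300, had 1.84 in replicate 1 only. In replicate 2 the same bases still fell in a stretch with a listed rate, 1245 bases long from 35055740 to 35056984. The lowest listed rate near a start was 1.04e-66 in replicate 1 and 1.20e-41 in replicate 2, far under the list's limit of 0.05 in both libraries.

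The Cebpg peak held 8 footprints in replicate 1 and 6 in replicate 2, and 4 of the 8 overlapped one of replicate 2. ATTGG, the reverse strand of the CCAAT box bound by NF-Y, lies at positions 144 to 148 of the printed sequence, all 5 bases inside a footprint of both libraries, and again at 205 to 209 with 2 bases inside. CCAAT on either strand was present in 24.7% of all 200-base windows centred on peaks within 1 kb of a start. The printed promoter has no match to TTGCNNAA, the letters searched for C/EBP on both strands.

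Cebpb, a C/EBP factor of emergency granulopoiesis and of the acute-phase response in liver, is an intronless gene on chromosome 2 from 167688915 to 167690418. Its main promoter site, 167688541 to 167689280, had a highest peak of 2.37 (2.04 to 2.73) in replicate 1 and of 2.73 (2.36 to 3.14) in replicate 2, and a further peak of 1.30 in replicate 2. These values lay at percentile 28.5 and 37.3 among genes with a promoter peak, so the Cebpb promoter was below the median of such genes in both libraries. A site in its coding exon, 167689481 to 167689880, also near a start of the neighbour Tmem189, had 1.40 in replicate 1 and peaks of 1.50 and 1.44 in replicate 2. A peak at 167687841 to 167688060 had 1.08 in replicate 1 alone. The lowest listed rate within 1 kb of the start was 6.50e-09 and 3.13e-08.

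The highest site near Cebpb that is not at a start was upstream, in an intron of Tmem189. It lies 3495 bases before the start, at 167685221 to 167685420, and had 7.32 (6.74 to 7.93) and 5.17 (4.66 to 5.72), well above the promoter's own peaks in both libraries. It held 5 footprints in each library, and all 5 of replicate 1 overlapped one of replicate 2, whereas 1 of 6 did so in the main promoter site. A longer protected stretch in the middle of this site can be read from the capitals in its printed sequence. A site 8695 bases before the start, 167680021 to 167680220, had 4.76 and 2.99. These were the 2 shared distal sites of Cebpb, a distal site being over 1 kb from any annotated start, and 4 more distal peaks appeared in replicate 1 only.

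Cebpd, an immediate-early C/EBP factor induced in the acute-phase response, lies on chromosome 16 from 15887286 to 15891031. One site of 1440 bases, 15886801 to 15888240, covered its start and coding exon. Replicate 1 split it into 4 peaks with values of 0.838, 1.95, 0.801 and 1.31, replicate 2 into 2 peaks with 1.52 and 1.32. The promoter was thus broad and low: its highest values lay at percentile 24.6 and 20.6 among genes with a promoter peak. The listed stretch there was 1563 bases long in replicate 1, with a lowest rate of 1.70e-11, and was split in replicate 2 into 883 and 573 bases, with a lowest rate of 2.06e-07. Of 9 footprints in replicate 1, 6 overlapped one of the 12 in replicate 2, and those 6 all lay before the start, within the printed sequence. GGGCGG, the SP1 core, lies at positions 104 to 109 and 168 to 173 of that sequence, with 0 and 2 of its bases inside a footprint of both libraries. Over all peaks within 1 kb of a start, 50.9% of windows held it. Cebpd had no distal peak within 50 kb in either library, and its other peaks were at the start of Mzt2, with 8.42 and 4.77 at the highest.

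Cebpe, the C/EBP factor of late granulocyte maturation and of secondary granule genes, was the C/EBP gene without a promoter peak in both libraries. It lies on chromosome 14 from 54710360 to 54712174 on the minus strand. Its promoter peak, 808 bases before the start at 54712982 to 54713084, had 0.739 (0.564 to 0.952) in replicate 1 and no counterpart in replicate 2. The lowest listed rate near the start was 0.0241 in replicate 1, close to the limit of 0.05, and none was listed in replicate 2. No peak covered the start itself in either library.

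The 3 shared distal sites near Cebpe were each higher in replicate 1 than that promoter peak. The highest, 54705861 to 54706160, lies 6014 bases downstream of the start in intergenic sequence and reached 8.64 (8.01 to 9.30) in replicate 1 against 2.97 (2.58 to 3.39) in replicate 2. The others shared by both libraries were 54701422 to 54701620, with 2.60 and 1.44, and 54714112 to 54714380, 1938 bases before the start, with 1.89 and 1.12. A downstream enhancer of Cebpe has been described in myeloid cells, and whether the site at 6014 bases is that element was not tested. It held 5 footprints in replicate 1 and 3 in replicate 2, and the 3 matched ones are in capitals in the printed sequence.

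TTGCNNAA occurs 3 times in the Cebpe downstream site, at positions 59 to 66, 161 to 168 and 179 to 186 of the printed sequence, with 0 bases of any match inside a footprint of both libraries. The matched footprint in its middle instead covers CACCC, the letters of KLF sites, at 133 to 137 in both libraries. Of AGATAA, the letters of GATA sites, at 118 to 123, it covers 2 bases in replicate 1 and all bases in replicate 2. Of all distal peaks, 7.43% held TTGCNNAA in a 200-base window, 52% CACCC and 23.9% AGATAA or TGATAA. Of the 25 distal sites near the 10 genes, 3 held TTGCNNAA, or 12%, and of the 13 shared ones this was the only 1.

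Among the granule genes, Elane and Prtn3 lie 3072 bases apart on chromosome 10 and share all peaks of their windows. Elane, from 79886247 to 79888215, had no promoter peak and no listed rate within 1 kb of its start in either library. Prtn3, from 79874476 to 79883174, had 1 peak of 1.75 (1.47 to 2.06) in replicate 1, at 79882137 to 79882281. That peak lies near the 3′ end of the gene, 354 bases from the start of a retained-intron transcript. With starts of protein-coding transcripts alone, a choice made after seeing the data, Prtn3 has no promoter peak. It held 0 footprints.

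The nearest shared site to Elane, 79883781 to 79883978, lies 2269 bases before its start and after the end of Prtn3, and had 2.02 (1.72 to 2.35) and 1.40 (1.14 to 1.70). Its single footprint in each library covers AGGTGGCGC, a match to the CTCF core letters AGNNGGCGC, at positions 67 to 75 of the printed sequence with all 9 bases inside. Those letters were searched after that sequence had been seen, and 12.7% of all distal peaks hold them. Of the 13 shared distal sites near the 10 genes, 3 held them, or 23.1%. The others were 79925361 to 79925600 in this window and 167680021 to 167680220 before Cebpb. At both, a footprint of each library, widened by 5 bases, held the letters too. CTCF is the factor that binds insulators and loop anchors. The higher shared distal sites of this window were nearest to starts of other genes: 79925361 to 79925600 with 7.81 and 4.99, 1443 bases from Arid3a, and 79892821 to 79893040 with 3.41 and 2.62, 1968 bases from Cfd, the gene of complement factor D. The remaining shared site, 79914479 to 79914893, had 1.28 and 1.43. The window's highest peaks were promoters of Ptbp1, with 19.9 and 8.12, and Med16, with 13.2 and 7.06. The nearest protein-coding neighbours, Plppr3 and Cfd, had no promoter peak in either library.

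Mpo, on chromosome 11 from 87793581 to 87804413, had no promoter peak and no listed rate within 1 kb in either library. Its 3 shared distal sites all lay upstream. The highest, 87749521 to 87749760, was 43821 bases from the start and 5817 from that of Mir142hg, the host of the blood cell miRNA miR-142, and had 7.96 and 3.33. Beside it, 87748754 to 87748980 had 5.09 and 3.08. The nearest, 87771108 to 87771280 in an intron of Tspoap1, was 22301 bases away and had 2.70 and 1.79. The start of Mir142hg itself had 10.04 and 4.87, the highest values of the window.

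Ctsg was the gene with the least. It lies on chromosome 14 from 56099881 to 56102574, beside the mast cell protease Mcpt8 and granzymes Gzme and Gzmd, 1387706 bases from Cebpe. It had no peak and no listed stretch within 50 kb in either library. No peak within 50 kb in either library was found for 13.4% of all protein-coding genes.

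S100a8 and S100a9, 22596 bases apart on chromosome 3, had few and low peaks. S100a8, from 90668978 to 90670035, had a promoter peak of 0.554 (0.404 to 0.742) in replicate 1, at 90669001 to 90669197 over the first exon and intron, with 1 footprint. Within 1 kb of its start the lowest listed rate was 0.000921 in replicate 1, and none was listed in replicate 2. S100a9, from 90692632 to 90695721 on the other strand, had no promoter peak and no listed rate within 1 kb of its start. The 1 site of their windows in both libraries, 90710141 to 90710340, had 2.13 and 1.14 and lies 527 bases from a start of the pseudogene Gm42579, 14420 bases from S100a9. Neither gene had a shared distal site.

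**Figure D2:**
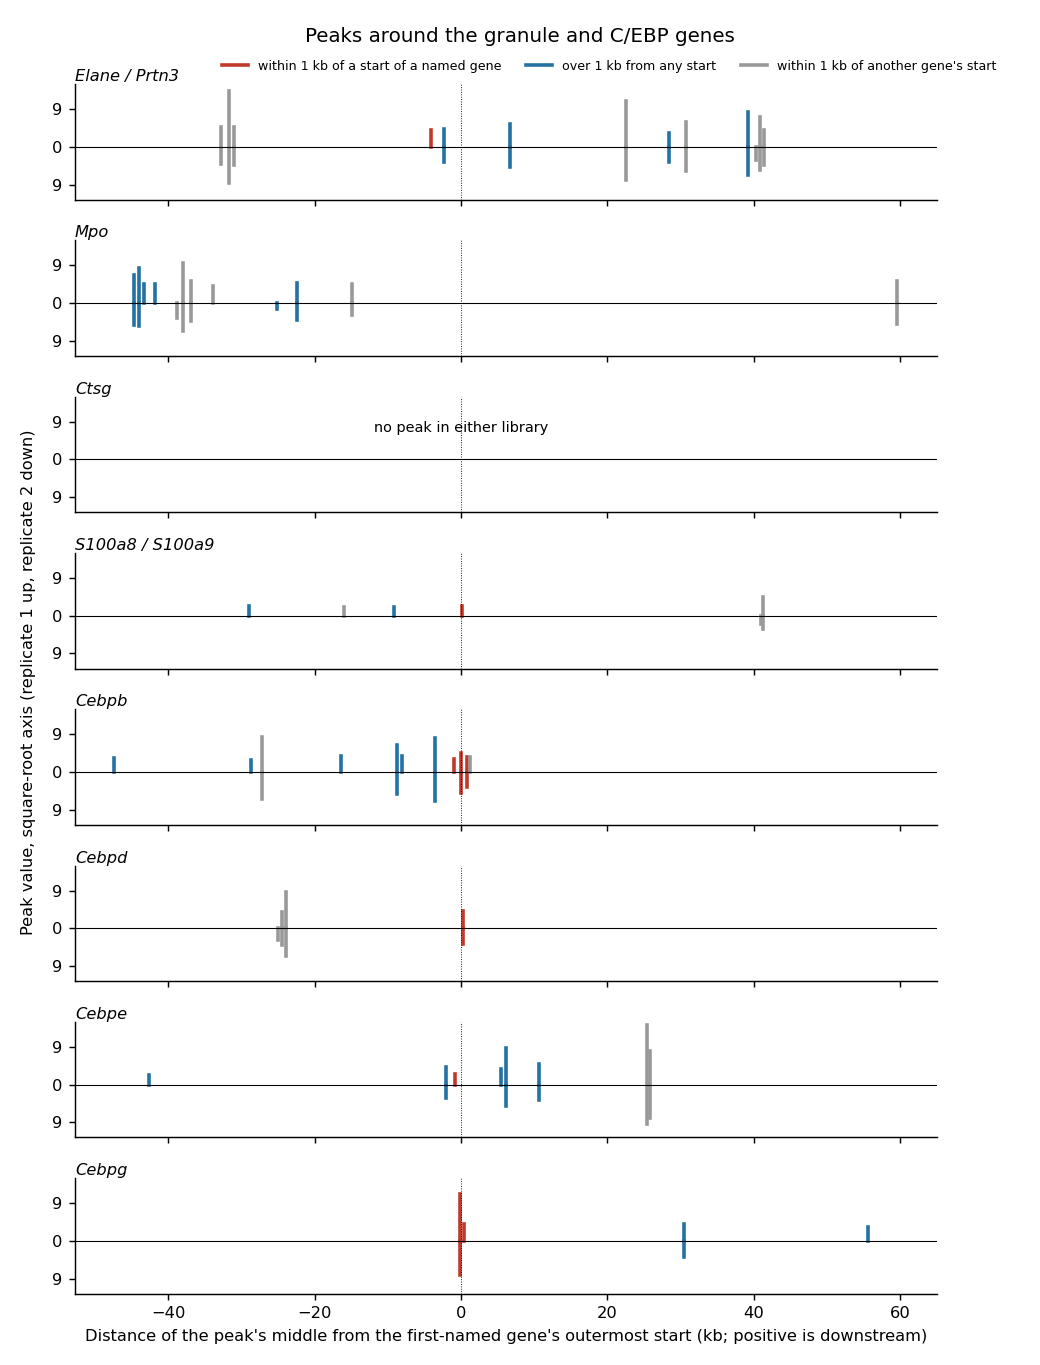
Peaks around the 10 genes by the distance of their middle from the outermost start of the first-named gene (kb, positive is downstream), with replicate 1 drawn up and replicate 2 down on a square-root axis of peak value. Red bars are within 1 kb of a start of a named gene, blue bars over 1 kb from any start, and grey bars within 1 kb of a start of another gene. Ctsg has no peak, Cebpd none that is distal, and the tallest distal bars lie near Cebpe, Mpo, Elane and Cebpb.

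Over the 10 windows there were 56 distinct peaks in replicate 1 and 42 in replicate 2, which joined to 58 sites, 34 of them in both libraries. Each site was classed once, from the first of the 10 genes whose window held it. By that class, 8 lay at the gene's promoter, 25 within 1 kb of a start of some other gene and 25 were distal. Of the distal sites, 13 were shared. The promoter site of Prtn3 was classed from Elane, so it is among those near a start of another gene. Genome-wide, 26687 peaks were shared 1 to 1, out of 47198 in replicate 1 and 36523 in replicate 2. Sites joined as here were not counted genome-wide. At least 1 shared distal site was found for 6 of the 10 genes, beside 54.7% of all protein-coding genes. The count was 4 for Elane and Prtn3 alike, 3 for Mpo and Cebpe, 2 for Cebpb and 1 for Cebpg, at 35026001 to 35026200 in an intron of Pepd with 1.75 and 1.61. The mean was 1.7 a gene, with Elane and Prtn3 counting the same 4 sites, against 1.26 over all genes. Of the 6 granule and calprotectin genes, 3 had a shared distal site, Elane and Prtn3 by the same sites, and of the 4 C/EBP genes 3 did.

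Listed stretches of the false discovery rate were read at the starts too. They come from the same cleavage data as the peaks, and each site with a peak held a listed rate in that library. Their match with the peaks is therefore no separate check. A stretch within 1 kb of a start was present for 6 of the 10 genes in replicate 1 and 3 in replicate 2, the same genes that had promoter peaks, beside 59.7% and 56.6% of all genes. The stretches outside any peak in the 10 windows were short, at most 48 bases, and their lowest rate was 0.0169, both near Cebpb in replicate 1. At Elane, Mpo, Ctsg and S100a9, then, no weaker signal was listed under the limit where a peak was missing. How open those starts were below that limit was not detectable in these lists.

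Footprints were counted over all 58 sites. There were 172 in replicate 1, 85 of which overlapped one of replicate 2, and 139 in replicate 2, 91 of which overlapped one of replicate 1. Their median length was 10 and 9 bases. The overlap between libraries was not counted over all 123897 and 94430 footprints, so no share stands beside these counts. Of genes with a promoter peak, 94.6% in replicate 1 and 93.3% in replicate 2 had a footprint in the highest one. Here Cebpb, Cebpd and Cebpg did in both libraries, S100a8 did in replicate 1, and Prtn3 and Cebpe, whose peaks were in replicate 1 only, had 0.

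Letters of several factors were searched in footprints widened by 5 bases. TTGCNNAA (C/EBP), GAGGAA (PU.1), TGACGTCA (CRE) and TATAAA were in 0 of the 172 and 0 of the 139. These letters were rare in footprints everywhere: of all footprints of replicate 1 and replicate 2, TTGCNNAA was in 0.295% and 0.212%, GAGGAA in 1.18% and 1.01%, TGACGTCA in 0.401% and 0.393%, and TATAAA in 0.213% and 0.221%. A count of 0 among the footprints here is therefore near the background. In 200-base windows, TTGCNNAA was in 3 of the 25 distal sites, beside 7.43% of all distal peaks of replicate 1, and in 5 of the 33 sites near a start, beside 4.62%. GAGGAA was in 6 of 25 distal sites, beside 19.3%, and in 6 of 33 near a start, beside 17%. GGGCGG was in 19 and 10 footprints, beside 13% and 12% of all, CACCC in 13 and 7, beside 7.99% and 6.17%, and the CTCF core in 3 and 4, beside 3.01% and 2.79%. RefSeq's promoter windows about each gene's start were searched too, and 8 of the 10 genes had one. GAGGAA was present in those of Elane, Prtn3, Mpo, Ctsg and S100a8, and in 28.3% of all such promoters, while TTGCNNAA was present in S100a9 alone, and in 10.8% of all. A match says only that the letters are there.

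**Figure D3:**
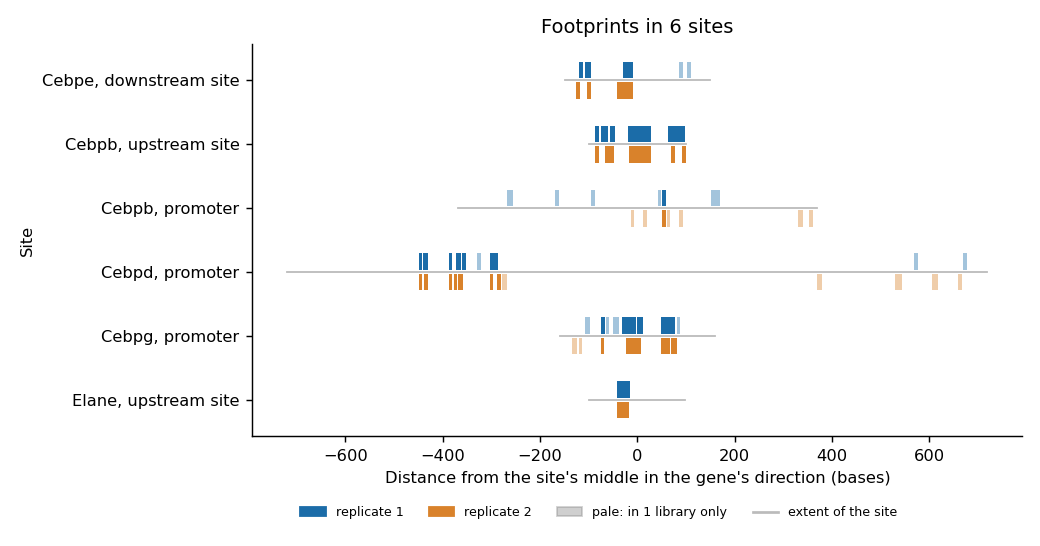
Footprints in 6 sites by distance from the site's middle in the gene's direction (bases), replicate 1 in blue above and replicate 2 in orange below the grey line that marks the site's extent. Full colour marks footprints that overlap between libraries and pale colour those in 1 library. The Cebpb upstream site has all 5 of its replicate 1 footprints matched, and the main Cebpb promoter site 1 of 6.

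The 2 libraries were compared at the 34 shared sites as the log2 ratio of replicate 2 over replicate 1. Because taller peaks had lower ratios throughout the genome, the running median ratio of shared peaks of like height was taken off, and what is left is called the excess. The excess was above 0 at 19 sites and below at 15, with a median of 0.06. The ratio at the Cebpg promoter had an excess of 0.16, within the middle range of like peaks. The Cebpb promoter was the higher of the pair in replicate 2, with a log2 ratio of 0.21 and an excess of 0.76, at percentile 96.6 among like peaks. Replicate 2 split that site into 2 peaks, the higher of which was used, while the like peaks are all shared 1 to 1. The Cebpe downstream site had a log2 ratio of -1.54 and an excess of -0.83, at percentile 1.40. At the highest Mpo upstream site the excess was -0.53, at percentile 9.18. With 1 library on each side, these ratios compare the libraries and have no replicate check.

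**Figure D4:**
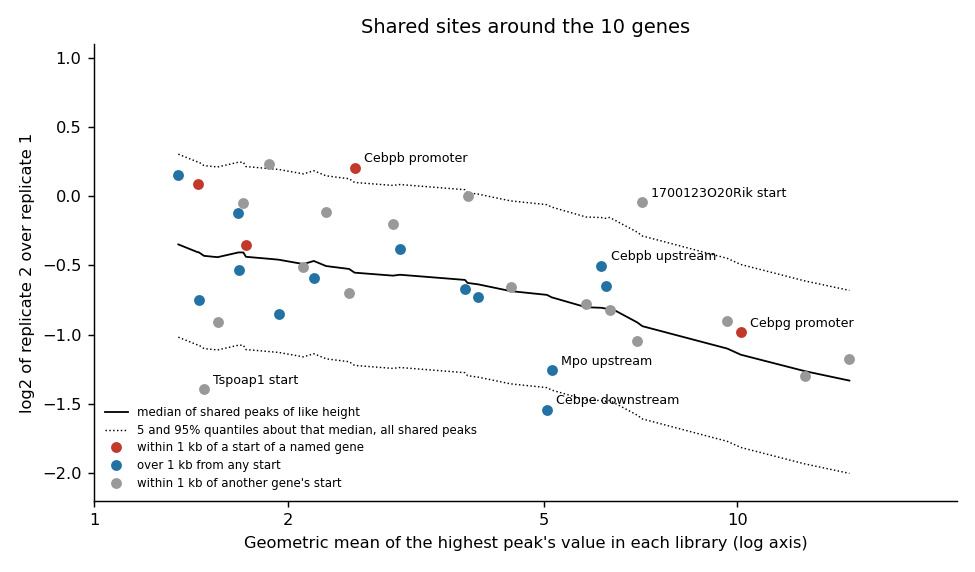
Log2 ratio of replicate 2 over replicate 1 against the geometric mean of both values (log axis) at the 34 shared sites, coloured as in the plot of peaks by distance. The solid line is the median of shared peaks of like height and the dotted lines are the 5 and 95% quantiles of the excess over all 26687 peaks shared 1 to 1. The Cebpe downstream site and the Tspoap1 start lie under the lower line, and the Cebpb promoter, an Arid3a site and the 1700123O20Rik start over the upper.

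Most other granule genes had no promoter peak either. Of 20 further granule and surface genes, 3 had a promoter peak in replicate 1 and 2 in both libraries, or 10%. These were Mmp9, gelatinase B, with 2.40 and 1.55, and Bpi, a bactericidal granule protein, with 1.52 and 0.998, while Ltf, lactoferrin, had 0.776 in replicate 1 only. Camp, the cathelicidin gene, is an example of the 17 with none. All 20 starts are CpG-poor, the class in which 26% of all genes had a promoter peak in both libraries. At least 1 shared distal site was near 12 of the 20, beside 54.7% of all protein-coding genes.

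Of 10 granulocyte and monocyte factors, 7 of them CpG-rich, 9 had a promoter peak in both libraries, beside 54.1% of all genes and 86.3% of those with CpG-rich starts. They were led by Runx1 with 5.66 and 4.35, while Gfi1, a repressor needed for neutrophil formation, had none. All 10 had a shared distal site, beside 54.7% of all genes. Of the 9 open promoters, 3 were CpG-poor, that of Spi1, the gene of PU.1, among them with 1.50 and 1.47. Many of these factors also act in stem cells and in red cell, megakaryocyte or liver cells. The 3 other genes listed as C/EBP, all CpG-rich, had promoter peaks in both libraries. Ddit3, the stress factor CHOP, had 22.6 and 7.51. Cebpa, the C/EBP factor of early granulocyte and hepatocyte commitment, had 3.06 and 2.16. Cebpz, with 13.3 and 5.41, was listed by name, without a check that its protein is a basic leucine zipper factor. All 9 C/EBP partners and stress factors, 7 of them CpG-rich, had promoter peaks in both libraries too, with the highest value at Atf5, 15.2 and 7.80. Of 11 S100 genes near S100a8 and S100a9 or in the same gene cluster, all CpG-poor, 4 had promoter peaks in both libraries, or 36.4%. The share was 26% of all CpG-poor starts and 54.1% of all genes. S100a1 and S100a13 shared the highest, 2.08 and 1.33, and S100a14 is an example with none.

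**Figure D5:**
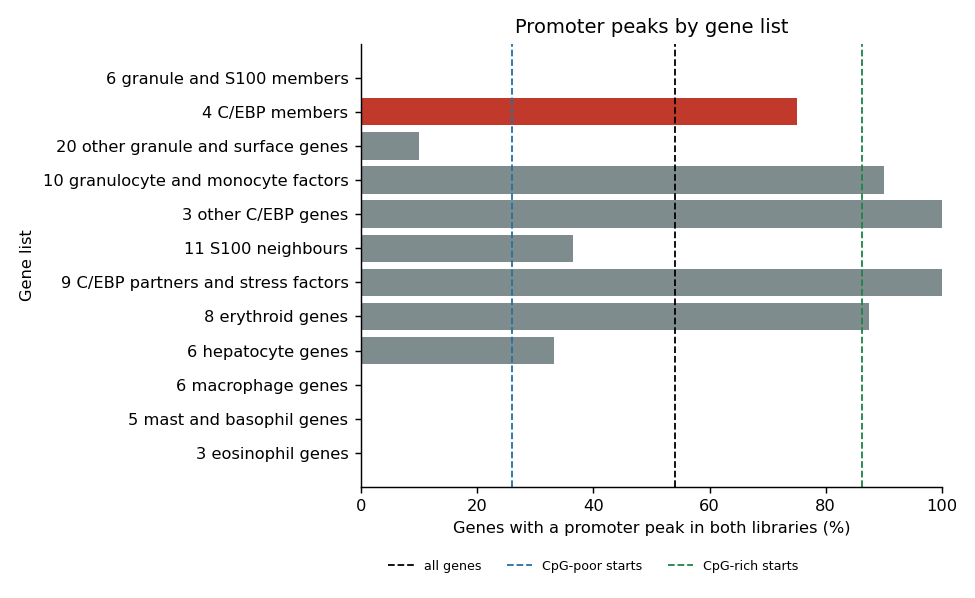
Percentage of genes with a promoter peak in both libraries for the 6 granule and calprotectin genes and the 4 C/EBP genes (red) and for 10 other gene lists (grey). Dashed lines are the shares over all protein-coding genes, 54.1%, over CpG-poor starts, 26%, and over CpG-rich starts, 86.3%. The granule genes, at 0 for the 6 and 10% for the 20 others, lie under the CpG-poor line, and the factor lists lie to the right of the line for all genes.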

How the data were processed

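Per the file headers and labels, the authors made 4 tables from the mm10 alignments of each library: footprints, the false discovery rate of the cleavage rate, and 2 peak lists of unequal length. Peaks were made per library. The sources used here name no peak caller, version or threshold. The deposited signal of each peak is depth-normalised, and no source used here says how it compares between libraries, so values stand side by side. The deposited false discovery rate is an adjusted p-value (q-value type), listed only under 0.05. The deposited footprint score is the constant 0.01, so only positions were used.

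The longer lists were used with transcript starts of GENCODE vM21. Peaks that overlapped by 1 base were shared and were joined to sites, whose value is the highest peak's. Percentiles of ratios are among peaks shared 1 to 1 and nearest in height. Intervals are exact 95% Poisson intervals of a value in steps and cover counting error only. Motif letters were searched on both strands. GRCm38.p6 sequence was read with pysam 0.24.0. The work was done in Python 3.11.15 with numpy 2.4.6, pandas 2.3.3 and matplotlib 3.10.9, and the overlap, distance and ratio steps were checked on simulated data.

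The genes and lists were chosen with earlier results of these data known. All 10 genes, every peak within 1 kb of their starts, the 3 highest shared distal sites of each window, and for each list the highest promoter value and the first gene in the alphabet without a peak are named; other genes and sites were named after their values were seen. With 1 group of 2 libraries from separate biosamples of the same donor identifier, no test between groups was made. Alternatives used the shorter list, peaks in the upper 50% of values, other distances, starts and overlaps, and each library alone.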

Additional observations from a re-analysis of the deposited data

How the results depend on the processing

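No paired analysis was possible because the libraries form 1 group. The 3 genes with a promoter peak in both libraries stayed at 3 with the shorter list, peaks in the upper 50% of values, 500 bases, outermost starts or protein-coding transcripts only. The count was 6 within 2500 bases, where Elane, Prtn3 and Cebpe gain one, and ranged from 3 to 6 with a single library. No share of all genes was computed within 2500 bases. In replicate 1 the 6 genes became 3 with the shorter list, and in replicate 2 the 3 became 6 within 2500 bases. The 13 shared distal peaks became 8 with the shorter list, 7 within 20 kb, 26 within 100 kb and 8 when distal meant over 2500 bases, and ranged from 14 to 24 with a single library. The median excess log2 ratio of 0.06 was -0.65 as a plain ratio. Over all 26687 peaks shared 1 to 1, the plain ratio had a median of -0.496. It keeps that offset between the libraries as well as the fall with peak height. Motif matches in promoter peaks fell from 62 and 36 to 7 and 5 in footprints widened by 5 bases, which hold fewer bases. Low peaks rest on few steps, 45 for that of S100a8 in replicate 1, and how they depend on depth was not tested.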
